A study of Mus musculus with 6 samples.

Results

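The amino acid transporters described here are membrane proteins of 8 solute carrier families (Slc1, Slc3, Slc6, Slc7, Slc15, Slc36, Slc38 and Slc43), followed in mouse uterus late in pregnancy. Members were all array probes whose gene symbol begins with Slc1a, Slc3a, Slc6a, Slc7a, Slc15a, Slc36a, Slc38a or Slc43a, whatever their signal, which gave 109 of 45281 probes and 62 of 30789 gene symbols. One of them, Slc7a6os, meets the rule by name only: it lies beside Slc7a6 and encodes no transporter. The study set 3 arrays of uterus at 18.5 days post coitum against 3 arrays at 15.5 days post coitum, and the labels name no treatment, strain, allele or age of the mice. Total RNA was read on 1-colour Illumina bead arrays, and all 6 arrays sat on 1 chip. The samples are labelled as uterus, and the series' design text names the muscle wall, the myometrium. The same text mentions 18 biological replicates per day, and since neither source links animals to arrays, the p-values below cover only array-to-array spread, part of which may be technical. The days took separate stretches of the chip, so day and chip position cannot be told apart.

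Amino acids cross cell membranes mainly through carriers, and these families divide the task by substrate and by driving force. Slc1, Slc6 and Slc38 carriers couple uptake to sodium, Slc7 light chains exchange one amino acid for another while joined to the heavy chain Slc3a2, Slc15 and Slc36 carriers run with protons, and Slc43 carriers let branched-chain amino acids pass along their gradient. Several Slc6 members carry organic osmolytes and neurotransmitters (betaine, taurine, creatine, serotonin, noradrenaline) rather than amino acids of protein. Cells short of amino acids raise the translation of the transcription factor ATF4, which binds amino acid response elements and induces some of these carriers, and amino acids that enter the lysosome are read by the kinase complex mTORC1.

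Signals are given as log2 of the background-corrected, quantile-normalized bead signal, and each probe's signal is compared only with itself between days. Between 43.6% and 46.5% of all probes were detected per array (detection p under 0.05), and same-day arrays correlated at 0.987 to 0.992, against 0.945 to 0.960 for arrays of different days. Smooth muscle markers were all detected, and their summed linear signal spanned 109869 to 118225 at day 18.5 and 104661 to 117867 at day 15.5. Of 7 smooth muscle markers tested, 1 was called, the cytoskeletal protein smoothelin (Smtn), which fell by 0.52 (adjusted p = 0.00798, limma). Other cell types moved with the day. Epithelial markers summed to 35520 to 40386 at day 18.5 and to 12319 to 19024 at day 15.5, with 7 of 8 tested called higher and Tacstd1 detected on no array. Trophoblast markers summed to 3205 to 11811 at day 18.5 and to 289 to 427 at day 15.5, with 4 of 5 tested called higher and Tpbpa, Prl3d1, Psg16, Psg17 and Gcm1 detected on no array. The brightest of them, Prl2c2, read 11.70, 12.26 and 10.52 on the day 18.5 arrays and 5.69, 5.47 and 4.84 on the day 15.5 arrays. Yolk sac markers summed to 964 to 5420 at day 18.5 and to 781 to 919 at day 15.5, with 2 of 3 tested called higher, 1 lower, and Alb detected on no array. The 1 lower was Rbp4, which fell by 1.31 (adjusted p = 0.000728, limma). Apoa1, one of the 2 called higher, read 8.58, 10.62 and 11.76 at day 18.5 and 5.16, 4.95 and 4.89 at day 15.5. Among the day 18.5 arrays, Prl2c2 was thus highest on replicate 2 and Apoa1 on replicate 3. Lymphocyte and NK cell markers summed to 714 to 956 at day 18.5 and to 5499 to 6947 at day 15.5 (5 of 6 called lower, Gzmb detected on no array), leukocyte markers to 7489 to 8015 at day 18.5 and 9755 to 11721 at day 15.5 (3 of 5 lower, Fcer1g detected on no array), and endothelial markers to 5533 to 6293 at day 18.5 and 8387 to 10331 at day 15.5 (3 of 5 lower, Kdr detected on no array). Decidual markers (2 of 6 higher, 2 lower), red cell markers (1 of 5 higher, 2 lower) and adipocyte and mesothelial markers (none of 3 called) moved less evenly. The part of these cell types in the carrier results was not tested, and in whole tissue fewer cells of a type cannot be told apart from less RNA per cell.

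Between the days, the carriers that moved did so in both directions. The betaine and GABA carrier Slc6a12 and the cationic-family member Slc7a4 fell most, and the serotonin transporter Slc6a4, the glutamate carrier Slc1a1 and the light chain Slc7a7 rose. A probe was tested if it was detected on at least 3 of the 6 arrays, which 48 of the 109 member probes (35 of 62 genes) were. This filter admits probes seen on a single day only, so counts over the tested members describe them and support nothing further. Of the 48, 7 were called higher at day 18.5 and 10 lower at a p under 0.05 (limma, two-sided, adjusted after Benjamini and Hochberg over all 20701 tested probes), 35.4% in all, against 24.8% of all tested probes (11.6% higher and 13.2% lower). With each gene taken at its brightest tested probe, 5 of 35 genes were called higher, 8 lower and 22 not, 37.1% against 25.2% of all 14751 genes (12.2% higher and 13% lower). The median log2 difference (day 18.5 minus day 15.5) over the 48 probes was −0.10, against 0.01 over all tested probes. The arrays of the days did not overlap at 26 of the 48 probes, 54.2% against 41.7% of all tested probes. Without replicate 2 of day 18.5 the calls were 6 higher and 9 lower, and without replicate 3 of day 18.5 they were 6 higher and 10 lower.

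**Figure D1:**
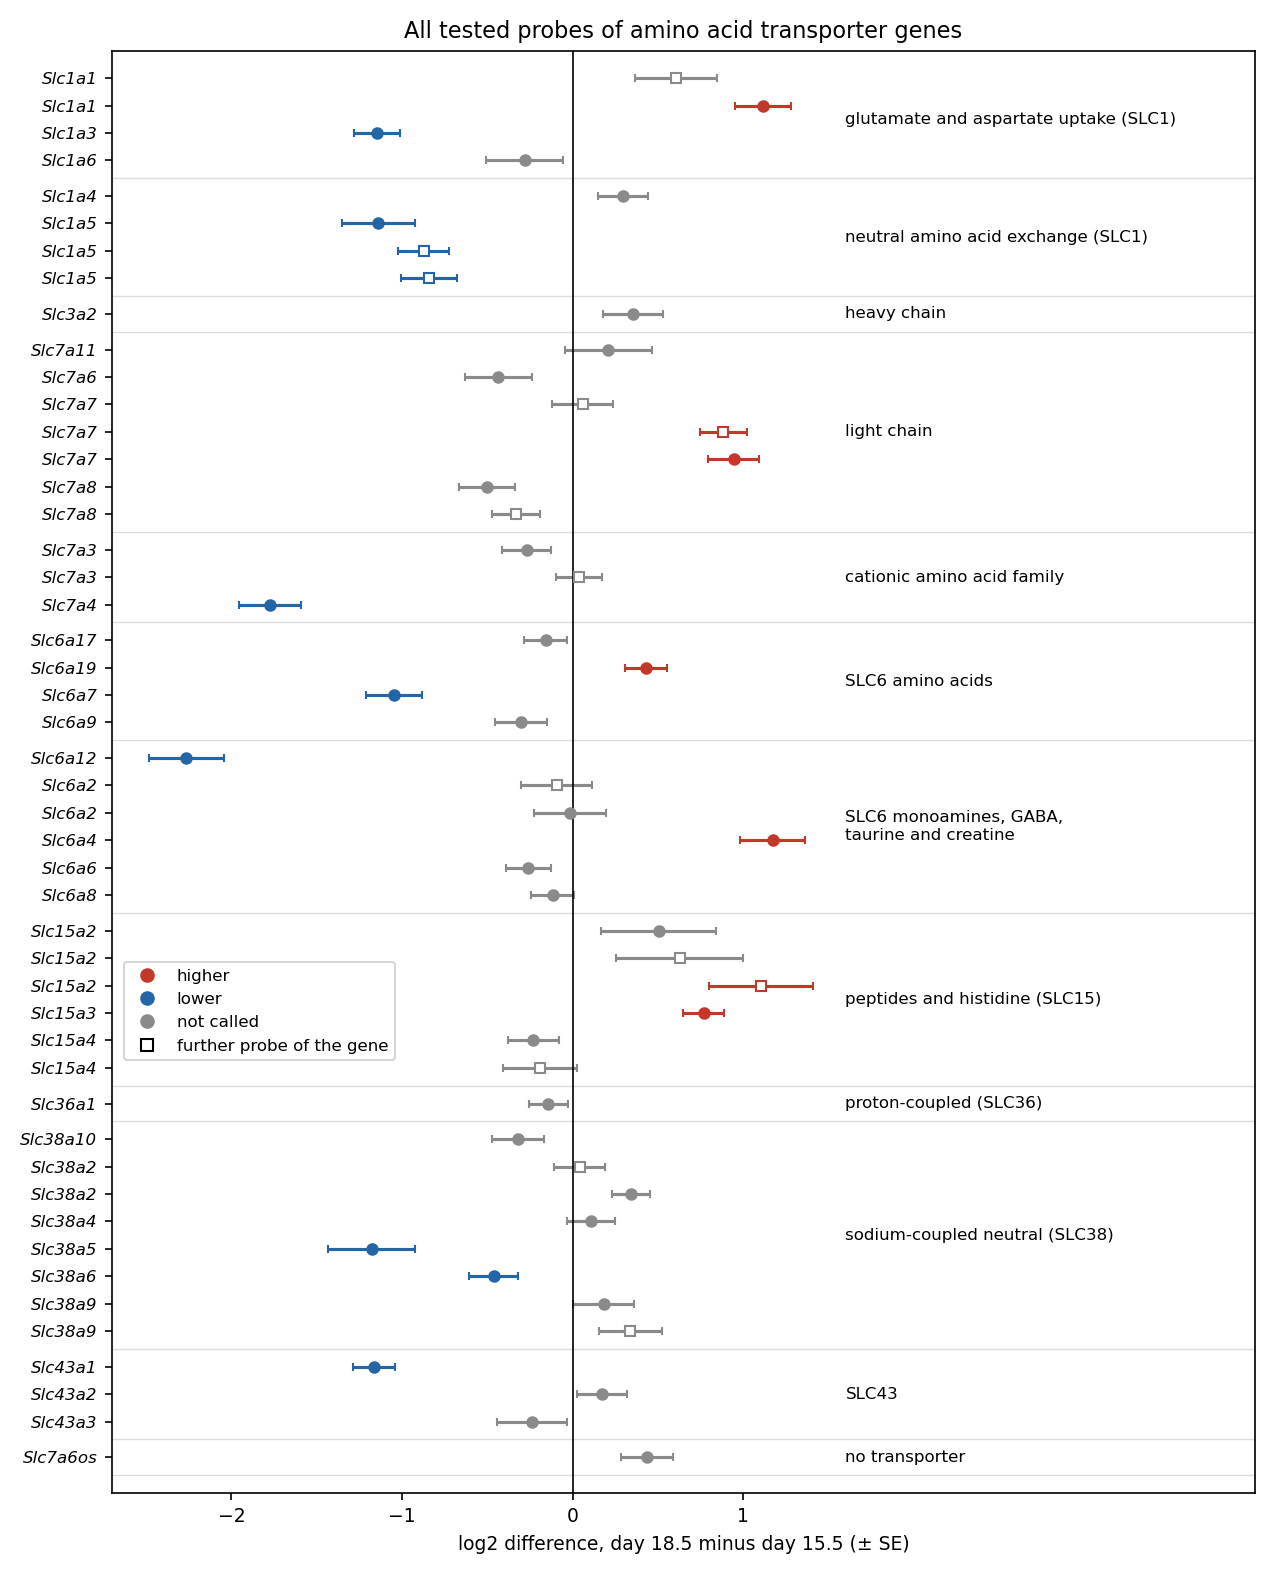
Log2 difference (day 18.5 minus day 15.5, horizontal axis) with its standard error for each of the 48 tested probes, ordered by role, with filled circles for a gene's brightest probe and open squares for its further probes. Called differences lie on both sides of 0, from −2.26 at Slc6a12 to 1.17 at Slc6a4, while most roles also hold uncalled members near 0.

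Promoter sequence was examined for motifs of factors tied to this tissue and these genes. RefSeq promoters (GRCm38.p6) matched 44 of the 62 member genes, in 65 windows of the 250 bases before an annotated start, some overlapping. The E-box CACCTG, read on both strands and known to be bound by the repressors ZEB1 and ZEB2, was in 12 of 65 member windows (18.46%), against 17.22% of all 32851 windows. The amino acid response element TGATGNAA, bound by ATF4 with C/EBP partners and read on both strands, was in 3 of 65 (4.62%), against 3.45% of all windows. Counted by gene, the E-box was in 0 of 5 genes that rose, 2 of 5 that fell and 6 of 16 not called, among the tested genes with a promoter sequence, a gene being counted as called if any of its probes was. A match describes letters and is no evidence of binding, and the member shares lie near those of all promoters.

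The 2 lowered genes whose windows hold the E-box are shown with it in capitals (here as CAGGTG, its reverse complement), 5′ to 3′ on the gene's strand. Slc6a12 has 5 annotated starts, of which only 1 has the motif in its window, chr6:121343006-121343255 on the plus strand, starting 153 bases before that start. For Slc38a5 it is chrX:8271131-8271380 on the plus strand, with the motif 37 bases before the start.
Slc6a12: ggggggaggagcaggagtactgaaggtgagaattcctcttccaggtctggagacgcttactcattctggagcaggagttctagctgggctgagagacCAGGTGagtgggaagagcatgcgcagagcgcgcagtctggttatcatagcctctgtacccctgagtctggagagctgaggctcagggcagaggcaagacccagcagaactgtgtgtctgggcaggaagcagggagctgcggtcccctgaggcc
Slc38a5: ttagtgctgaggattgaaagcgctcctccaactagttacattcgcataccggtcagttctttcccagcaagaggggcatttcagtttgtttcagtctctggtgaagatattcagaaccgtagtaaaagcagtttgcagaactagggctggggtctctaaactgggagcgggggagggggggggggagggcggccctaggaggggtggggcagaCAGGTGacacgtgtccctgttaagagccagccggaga

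The amino acid response element is shown in capitals in Slc7a7, which rose, and in Slc7a11, a known ATF4 target that was not called, to let the copies be compared. The first Slc7a7 window of 5 is chr14:54417945-54418194 on the minus strand, with 1 copy starting 141 bases before the start site. The Slc7a11 window is chr3:50443614-50443863 on the minus strand, with 2 copies in opposite orientation starting 66 and 47 bases before the start.
Slc7a7: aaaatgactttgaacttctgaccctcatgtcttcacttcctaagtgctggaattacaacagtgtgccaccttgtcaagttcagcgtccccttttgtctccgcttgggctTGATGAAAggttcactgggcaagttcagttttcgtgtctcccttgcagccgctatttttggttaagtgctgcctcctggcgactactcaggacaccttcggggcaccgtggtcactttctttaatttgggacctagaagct
Slc7a11: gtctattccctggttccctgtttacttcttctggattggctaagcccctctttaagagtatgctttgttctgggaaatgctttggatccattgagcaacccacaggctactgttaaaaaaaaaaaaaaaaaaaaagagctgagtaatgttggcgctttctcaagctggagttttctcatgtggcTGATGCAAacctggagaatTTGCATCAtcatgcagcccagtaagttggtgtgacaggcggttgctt
Another start of Slc7a7 has a further copy in its own window, 243 bases upstream, and the windows of its other starts hold none. That window overlaps the one shown, and the further copy begins at the last base before the first start, so distances depend on the start taken. The measured difference was 0.21 (not called) for Slc7a11 and 0.95 (called) for Slc7a7, and any part of the element was not tested.

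Among Slc6 carriers of osmolytes and neurotransmitters, 1 of 5 tested genes rose, 1 fell and 3 did not pass. Over all genes 12.2% were called higher and 13% lower. Counts this small, here and for the families below, only describe the members. Slc6a12 (BGT1) takes up betaine and GABA with sodium and chloride and is known as an osmolyte carrier of the kidney medulla. It read 7.67, 7.70 and 7.87 on the day 18.5 arrays, against 9.66, 9.81 and 10.57 on the day 15.5 arrays. All day 18.5 arrays lay below all day 15.5 arrays, and the spread within day 15.5 was several times that within day 18.5. Its mean was 7.75 ± 0.11 at day 18.5 and 10.01 ± 0.49 at day 15.5 (SD, n = 3 each), a fall of 4.81-fold (log2 difference −2.26 ± 0.22 SE, limma adjusted p = 9.67e-05). Slc6a4, the serotonin transporter, which is the target of antidepressants that block serotonin reuptake, read 6.81, 7.25 and 7.51 at day 18.5, against 5.90, 5.89 and 6.26 at day 15.5. The days did not overlap, and the log2 difference of 1.17 ± 0.19 (SE) corresponds to a 2.26-fold rise (adjusted p = 0.00187). A further Slc6a4 probe was detected on 1 array of day 18.5 and none of day 15.5 and was not tested.

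The taurine carrier Slc6a6 was the brightest member probe, up to 12.74 on one array, yet it did not pass. It read 12.39, 12.37 and 12.26 at day 18.5 and 12.40, 12.74 and 12.65 at day 15.5 (log2 difference −0.26, adjusted p = 0.187). Every day 18.5 value lay below every day 15.5 value, though the nearest pair was almost level. The creatine carrier Slc6a8 read 11.37, 11.30 and 11.36 at day 18.5 and 11.42, 11.32 and 11.64 at day 15.5, and these ranges overlapped (−0.12, adjusted p = 0.548). The noradrenaline transporter Slc6a2 gave a difference of −0.02 (adjusted p = 0.965).

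Of the Slc6 carriers of amino acids proper, 1 of 4 tested genes rose, 1 fell and 2 did not pass. Over all genes the shares were 12.2% higher and 13% lower. Slc6a7, a proline carrier known from brain, was below detection on all day 18.5 arrays (4.90, 5.03 and 5.09) and detected on all day 15.5 arrays (5.98, 5.80 and 6.38). Because the lower day gives only a bound, it is stated as at least 1.54-fold lower at day 18.5. The adjusted p of 0.00143 belongs to the fitted difference, which uses day 18.5 signals below detection, and not to the bound. A bound of this kind sets the mean of the brighter day against the lowest signal of any detected probe on each array of the dimmer day, or against the probe's own signal where that is higher. Slc6a19, the neutral amino acid carrier of gut and kidney brush borders (B0AT1), read 5.71, 5.79 and 5.93 at day 18.5, against 5.33, 5.50 and 5.30 at day 15.5. These values sit close to background, with detection on 3 of 3 arrays at day 18.5 and on 1 of 3 at day 15.5, although the days did not overlap. The difference of 0.43 ± 0.12 (SE) was the smallest called (adjusted p = 0.0315), and it passed the threshold in the absence of only 1 of the 6 arrays, replicate 2 of day 15.5. Without any other single array its adjusted p ran from just above 0.05 up to 0.0999, with differences of 0.37 to 0.48. Glycine transporter Slc6a9 (−0.30, adjusted p = 0.190) and the vesicular neutral amino acid carrier Slc6a17 (−0.16, adjusted p = 0.405) did not pass.

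**Figure D2:**
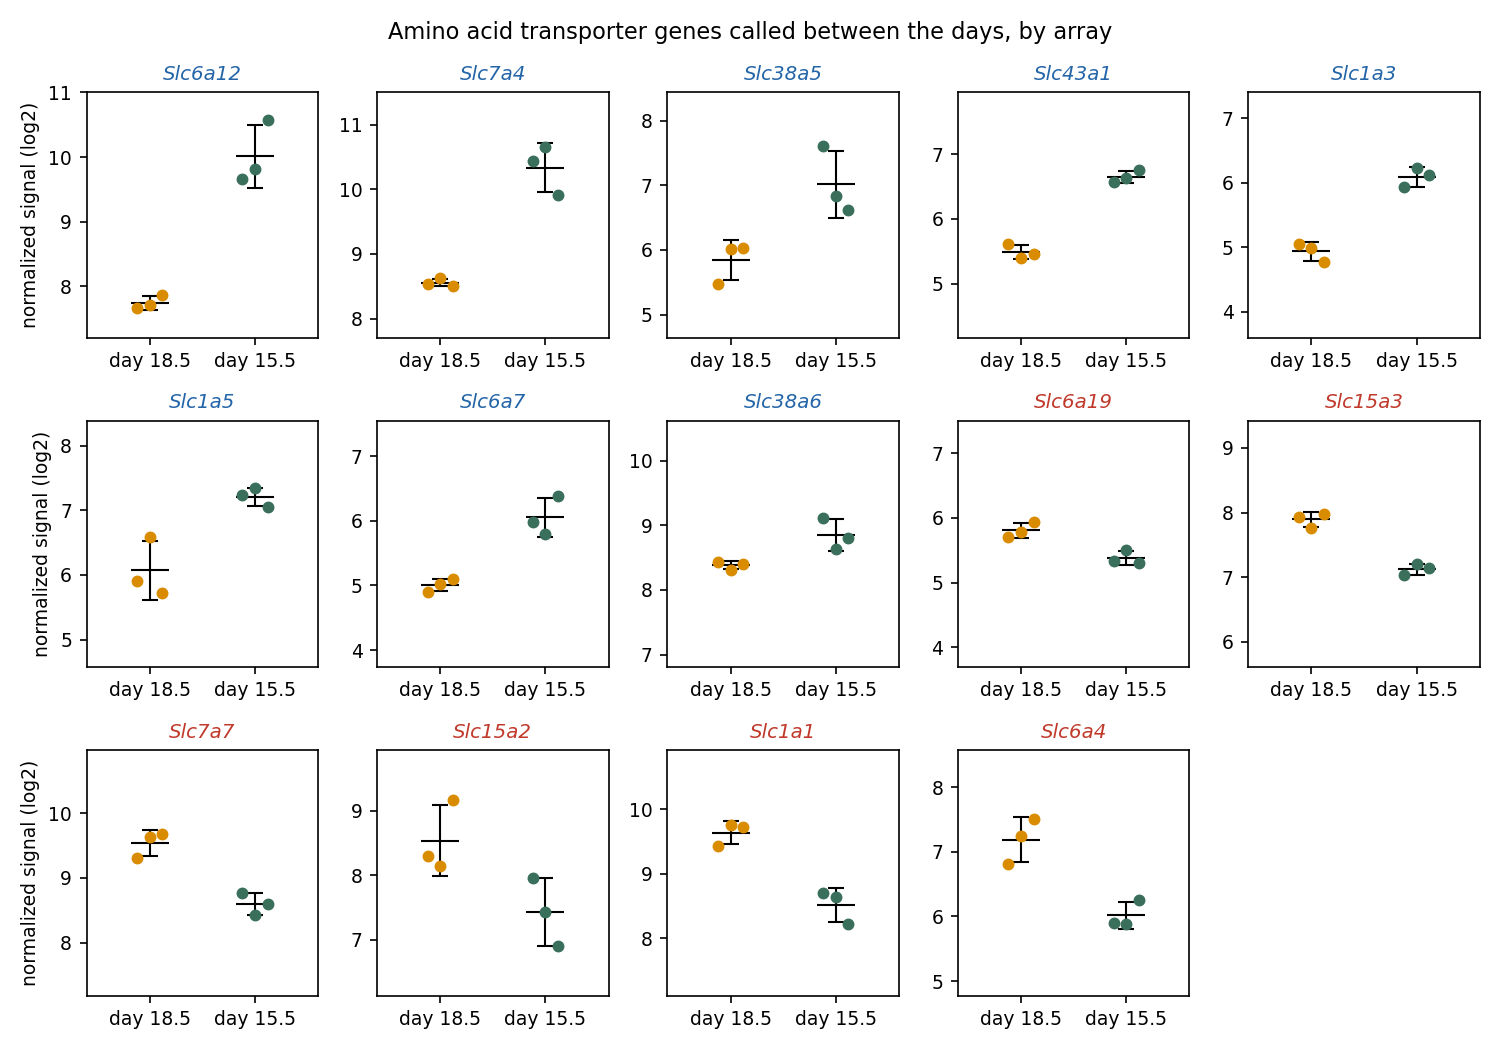
Log2 normalized signal on each array for the called member genes, with the 3 arrays of day 18.5 on the left of each panel and the 3 of day 15.5 on the right, bars giving the mean ± SD, and every panel spanning the same number of log2 units. Slc6a12 and Slc7a4 show the widest gaps, with all day 18.5 arrays under all day 15.5 arrays, and Slc15a2, drawn at a probe that is not its brightest, shows 1 day 18.5 array above the other two.

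The Slc1 family holds glutamate carriers and neutral amino acid exchangers, and its members split. Slc1a1 (EAAC1, EAAT3), a high-affinity glutamate and aspartate carrier that also takes up cysteine, read 9.43, 9.75 and 9.72 at day 18.5, against 8.70, 8.64 and 8.22 at day 15.5. Every day 18.5 array exceeded every day 15.5 array, and the rise was 2.17-fold (log2 difference 1.12 ± 0.16 SE, adjusted p = 0.00104). Its second, dimmer probe read 7.32, 7.45 and 6.71 at day 18.5 and 6.48, 6.99 and 6.19 at day 15.5, ranges that overlapped, with a difference of 0.61 that was not called (adjusted p = 0.101). Slc1a3 (GLAST, EAAT1), a glutamate carrier best known from glia, was detected on no day 18.5 array (5.05, 4.99 and 4.77) and on all day 15.5 arrays (5.93, 6.22 and 6.12). It was at least 1.57-fold lower at day 18.5, and the adjusted p of 0.000307 again belongs to the fitted difference. The Purkinje cell glutamate carrier Slc1a6 did not pass (−0.28, adjusted p = 0.411), with detection on 2 day 18.5 and 3 day 15.5 arrays. Its replicate 1 of day 18.5 (6.28) lay above all other arrays, and without that array the difference was −0.55 with an adjusted p of 0.0490.

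Slc1a5 (ASCT2) exchanges neutral amino acids and is a major route of glutamine into dividing cells. At its brightest probe it read 5.91, 6.59 and 5.72 at day 18.5, against 7.23, 7.34 and 7.05 at day 15.5. The days were apart on every array, and the probe fell 2.20-fold (log2 difference −1.14 ± 0.21 SE, adjusted p = 0.00398). Both of its further tested probes fell too, by 0.87 and by 0.84 on the log2 scale (adjusted p = 0.00243 and 0.00505), and 2 more Slc1a5 probes were detected on no array. Day 18.5 signals of the tested Slc1a5 probes lay mostly near background. Over other ways of processing the brightest ranged from −1.40 to −0.71. Slc1a4 (ASCT1), a relative of Slc1a5 that exchanges alanine, serine and cysteine, gave a difference of 0.30 that was not called (adjusted p = 0.183).

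**Figure D3:**
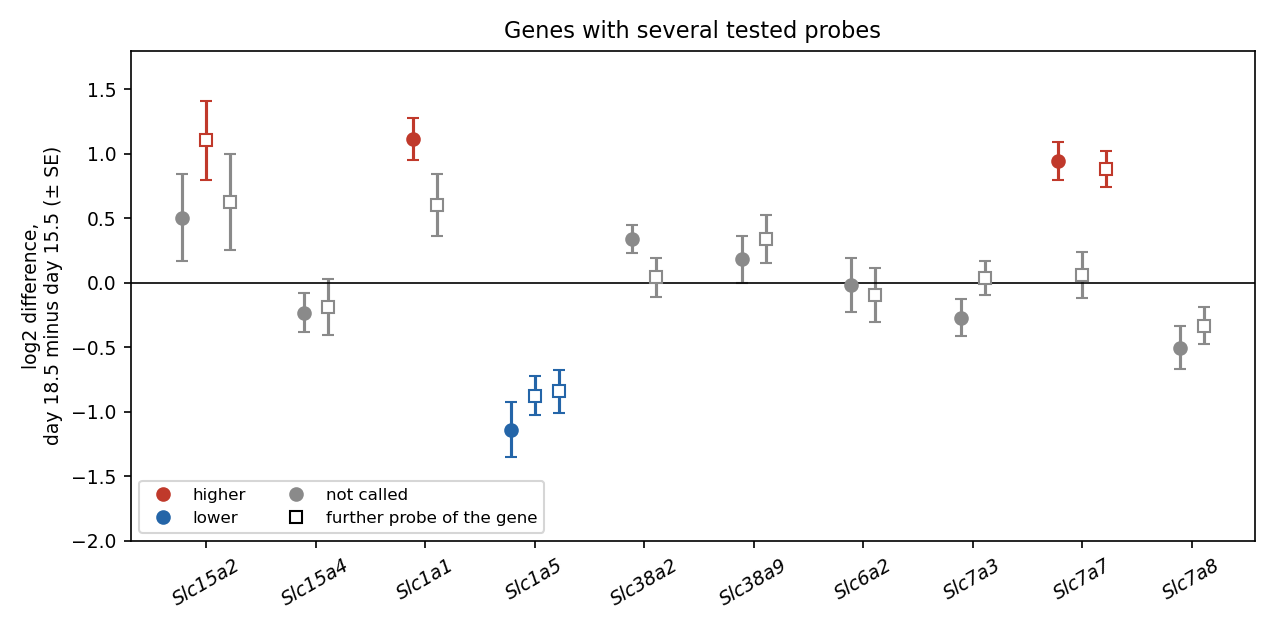
Log2 difference (day 18.5 minus day 15.5) with its standard error at each tested probe of the 10 member genes that had more than 1. No gene had probes called in opposite directions, and in Slc15a2, Slc1a1 and Slc7a7 one probe was called while another was not.

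Among Slc7 genes, light chains and cationic carriers were considered apart. Slc7a7 (y+LAT1) exports cationic amino acids such as arginine in exchange for neutral ones, and its loss in humans causes lysinuric protein intolerance. It read 9.30, 9.63 and 9.67 at day 18.5, against 8.76, 8.42 and 8.59 at day 15.5. The days did not overlap, and the gene rose 1.93-fold (log2 difference 0.95 ± 0.15 SE, adjusted p = 0.00154). A second Slc7a7 probe rose by 0.88 (adjusted p = 0.00156), whereas another, detected on only 2 arrays of each day, gave 0.06 (adjusted p = 0.845). The heavy chain Slc3a2 (4F2hc), with which light chains pair, read 5.90, 6.41 and 5.92 at day 18.5 and 5.91, 5.77 and 5.48 at day 15.5, overlapping ranges near background (0.35, adjusted p = 0.178).

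The remaining light chains were not called. Slc7a8 (LAT2), a carrier of large neutral amino acids, read 9.20, 9.23 and 9.74 at day 18.5 and 9.94, 9.76 and 9.98 at day 15.5. Its days did not overlap, but the difference of −0.50 ± 0.16 (SE) missed the threshold with an adjusted p of 0.0524. It passed in 7 of 17 other ways of processing, among them leaving out replicate 3 of day 18.5 (−0.68, adjusted p = 0.00987). Over all 17 the adjusted p ran up to 0.166. Its other probe gave −0.33 (adjusted p = 0.124). Slc7a6 (y+LAT2) gave −0.43 (adjusted p = 0.147). The cystine and glutamate exchanger Slc7a11 (xCT), an established ATF4 target, read 5.98, 5.92 and 6.49 at day 18.5 and 5.38, 5.96 and 6.42 at day 15.5, which overlapped (0.21, adjusted p = 0.597).

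Slc7a4 resembles the cationic amino acid transporters in sequence, although its own substrate is not settled. It read 8.54, 8.62 and 8.51 at day 18.5, against 10.43, 10.65 and 9.91 at day 15.5. The day 18.5 arrays lay close together (SD 0.06) and far below the day 15.5 arrays (SD 0.38), a fall of 3.42-fold (log2 difference −1.77 ± 0.18 SE, adjusted p = 0.000139). Slc7a3 (CAT3), a carrier of arginine and lysine, gave −0.27 at its brighter probe (adjusted p = 0.211) and 0.04 at the other (adjusted p = 0.872). Slc7a1, the widespread cationic carrier CAT1, had no probe that met the detection filter.

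Peptide and histidine carriers of the Slc15 family had 1 of 3 tested genes higher at the brightest probe and none lower. Over all genes the shares were 12.2% higher and 13% lower. Slc15a3, which moves histidine and small peptides out of endosomes and lysosomes of immune cells, read 7.94, 7.77 and 7.97 at day 18.5, against 7.03, 7.20 and 7.15 at day 15.5. The gap between the days was wide relative to the spread within each, and the gene rose 1.70-fold (log2 difference 0.77 ± 0.12 SE, adjusted p = 0.00162). Leukocyte markers summed lower at day 18.5, as given above, and their part was not tested.

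Slc15a2 (PEPT2) takes up di- and tripeptides with protons. At its brightest probe it read 8.92, 8.82 and 10 at day 18.5 and 8.99, 9.11 and 8.13 at day 15.5 (0.51, adjusted p = 0.316). One further probe was called higher: it read 8.30, 8.14 and 9.17 at day 18.5, against 7.95, 7.44 and 6.91 at day 15.5 (1.10 ± 0.31 SE, adjusted p = 0.0275). At all 3 tested probes replicate 3 of day 18.5 was the highest array and replicate 3 of day 15.5 the lowest. Without replicate 3 of day 18.5 the called probe gave 0.79 (adjusted p = 0.0784), without replicate 3 of day 15.5 it gave 0.84 (adjusted p = 0.0920), and without replicate 2 of day 15.5 it gave 1.11 (adjusted p = 0.0806). Replicate 3 of day 18.5 is also the array with most signal of the yolk sac marker Apoa1, whose part in this was not tested. The third probe gave 0.63 (adjusted p = 0.261), and the lysosomal Slc15a4 gave −0.23 (adjusted p = 0.301).

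Sodium-coupled neutral carriers of the Slc38 family had none of 6 tested genes higher and 2 lower. Over all genes the shares were 12.2% higher and 13% lower. Slc38a5 (SNAT5) carries glutamine, asparagine, histidine, serine and glycine. It read 5.48, 6.01 and 6.03 at day 18.5, with detection on 2 of 3 arrays, against 7.61, 6.83 and 6.61 at day 15.5, with detection on 3 of 3. The days did not overlap although day 15.5 spread widely, and the gene fell 2.26-fold (log2 difference −1.18 ± 0.25 SE, adjusted p = 0.00852). Slc38a6 (SNAT6), a less studied relative, read 8.44, 8.31 and 8.40 at day 18.5, against 9.11, 8.63 and 8.80 at day 15.5. Its fall of 1.38-fold (−0.46 ± 0.15 SE, adjusted p = 0.0441) passed in the absence of only 1 of the 6 arrays, replicate 2 of day 15.5, and the adjusted p without any other single array was between 0.0820 and 0.134. Those values came with differences of −0.49 to −0.33.

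The bright carrier Slc38a2 (SNAT2), which adapts its abundance to amino acid supply through ATF4, just missed the threshold. It read 12.06, 12.01 and 11.98 at day 18.5 and 11.66, 11.71 and 11.66 at day 15.5. All day 18.5 arrays lay above all day 15.5 arrays, with a difference of 0.34 ± 0.11 (SE, adjusted p = 0.0508). It passed in 8 of 17 other ways of processing, with differences of 0.19 to 0.40 and adjusted p between 0.0160 and 0.268 over all 17. At its other probe the ranges overlapped and the difference was 0.04 (adjusted p = 0.869). Slc38a10 gave −0.32 (adjusted p = 0.158), and without replicate 2 of day 15.5 it gave −0.46 (adjusted p = 0.0448). Slc38a4 (SNAT4), known for its role in placenta, gave 0.11 (adjusted p = 0.617), and Slc38a9, the lysosomal arginine sensor of mTORC1, gave 0.18 (adjusted p = 0.509). The proton-coupled carrier Slc36a1 (PAT1), at lysosomes and cell surfaces, gave −0.14 (adjusted p = 0.404).

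Of the 3 Slc43 genes, 1 fell, against 13% of all genes called lower. Slc43a1 (LAT3), a facilitative carrier of leucine and other branched-chain amino acids, read 5.61, 5.39 and 5.46 at day 18.5, with detection on 2 of 3 arrays, against 6.57, 6.63 and 6.75 at day 15.5. The days were well apart with little spread in either, and the gene fell 2.24-fold (log2 difference −1.16 ± 0.12 SE, adjusted p = 0.000159). Slc43a2 (LAT4), of similar substrates, gave 0.17 (adjusted p = 0.430), and Slc43a3, known as a purine nucleobase carrier, gave −0.24 (adjusted p = 0.439). Slc7a6os, the member that is no transporter, gave 0.44 (adjusted p = 0.0666).

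The days did not overlap in 21 of the 35 tested genes, against 42.8% of all 14751 genes. The 21 are all 13 called genes, where the call itself largely fixes this, and 8 of the 22 not called. The fitted change was at least 2-fold in 2 of the 5 genes that rose and in 7 of the 8 that fell. Among the 7 are Slc6a7 and Slc1a3, whose bounds are only 1.54-fold and 1.57-fold. How many of all called genes reached 2-fold was not counted, so these counts describe the members alone. The smallest called difference was 0.43 and the largest uncalled one 0.51, so the calls do not mark a clean step in size. In the authors' deposited table, the day 18.5 over day 15.5 ratio lay on the same side of 1 as the fitted difference for 47 of 47 tested member probes that had a ratio. That table gave a false discovery rate under 0.05 for 16 tested member probes, all of them among the 17 called here. The exception was Slc38a6, with a rate of 0.0813 in the authors' deposited table. The authors' deposited ratios were 0.195 for Slc6a12 and 0.283 for Slc7a4.

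Not tested for lack of detection were 61 member probes, among them all probes of 27 genes. For 21 of these genes no probe was detected on any array, among them Slc1a2 and Slc1a7 of the glutamate carriers, Slc6a3, Slc6a5, Slc6a11, Slc6a13, Slc6a14, Slc6a15, Slc6a16 and Slc6a20b, Slc7a2, Slc7a10, Slc7a12, Slc7a13 and Slc7a15, and Slc15a1, Slc36a3, Slc38a3, Slc38a8 and Slc38a11. They include carriers of GABA (Slc6a11, Slc6a13), dopamine (Slc6a3) and glycine (Slc6a5) of the nervous system and the intestinal peptide carrier Slc15a1. Detection on 1 or 2 arrays was seen for a probe of Slc36a2, Slc38a1, Slc6a18, Slc7a1, Slc7a14 and Slc7a9. A probe below detection can reflect a low transcript or a probe that reads its transcript poorly, and the arrays do not separate these.

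Genes that act around the carriers were taken from 5 lists. Of 30 tested enzymes of amino acid and glutathione metabolism, 5 were higher at day 18.5, 12 lower and 13 not called, with a median log2 difference of −0.35, against 12.2% higher, 13% lower and a median of 0.02 over all genes. Arginase 1 (Arg1), which splits arginine into ornithine and urea, read 11.43, 11.78 and 11.60 at day 18.5, against 7.41, 7.13 and 6.80 at day 15.5. The days were far apart, a rise of 22.5-fold (log2 difference 4.49 ± 0.17 SE, adjusted p = 1.53e-06). Argininosuccinate synthase (Ass1), which begins the remaking of arginine from citrulline, read 9.81, 9.96 and 10.01 at day 18.5, against 7.50, 7.78 and 7.74 at day 15.5, a rise of 4.77-fold (adjusted p = 5.88e-06). Spermidine synthase (Srm) fell by 0.92 (adjusted p = 0.00144) and glutamate dehydrogenase (Glud1) by 0.81 (adjusted p = 0.00216).

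**Figure D4:**
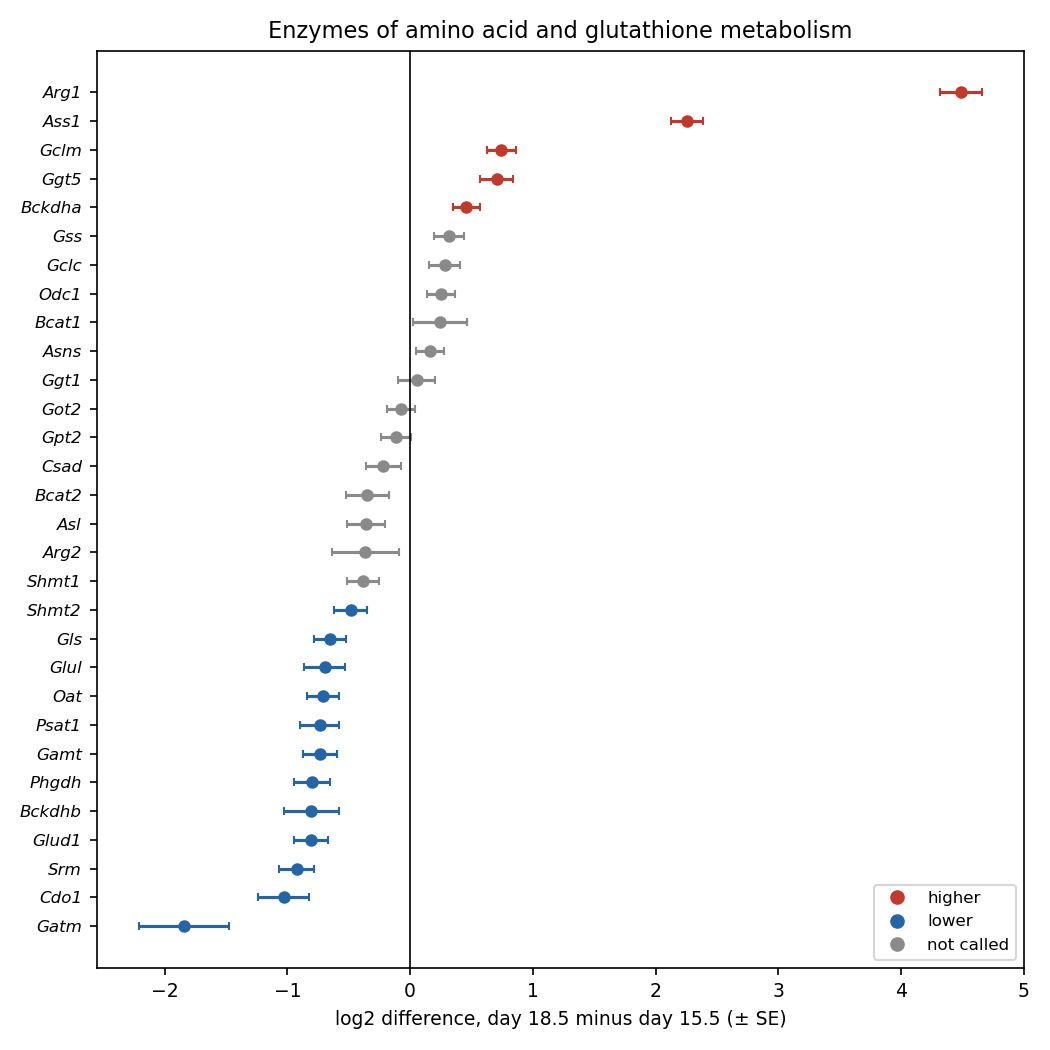
Log2 difference (day 18.5 minus day 15.5, horizontal axis) with its standard error for the tested enzymes of amino acid and glutathione metabolism, each gene at its brightest probe. Arg1 at 4.49 and Ass1 at 2.25 stand far to the right, while 12 of the 30 enzymes were called lower.

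A few further enzymes were picked after their values were seen because they act on substrates of the carriers above. The creatine enzymes fell beside the uncalled creatine carrier Slc6a8, Gamt by 0.74 (adjusted p = 0.00393). Gatm, detected on no day 18.5 array, was at least 2.80-fold lower (adjusted p = 0.00565 for the fitted difference). Cysteine dioxygenase (Cdo1), on the route to taurine, fell by 1.03 (adjusted p = 0.00606), while Csad on the same route was not called (−0.22, adjusted p = 0.303), beside the uncalled taurine carrier Slc6a6. Gclm, the modifier subunit of the first enzyme of glutathione synthesis, rose by 0.74 (adjusted p = 0.00189), beside Slc7a11, which was not called. Gclc (0.28, adjusted p = 0.141) and Gss (0.32, adjusted p = 0.0917), of the same synthesis, were not called.

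Known ATF4 target genes of the amino acid response moved both ways, with 5 of 26 tested higher, 7 lower and 14 not called (median −0.04). Over all genes 12.2% were higher and 13% lower, with a median of 0.02. The stress-induced mTORC1 inhibitor Ddit4 rose by 2.36 on the log2 scale (adjusted p = 1.58e-05) and the stress protein Nupr1 by 1.56 (adjusted p = 4.25e-05). The secreted glycoprotein stanniocalcin 2 (Stc2) fell by 2.10 (adjusted p = 2.89e-05) and the proline-making enzyme Pycr1 by 1.17 (adjusted p = 0.00192). Pycr1 was detected on 1 of 3 arrays at day 18.5, so the size of its fall rests on values near background and ranged from −1.62 to −0.64 over other ways of processing. Ddit4 is also known to respond to other stresses and hormones.

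Of 18 tested genes of amino acid sensing upstream of mTORC1, 2 were higher, 3 lower and 13 not called (median 0.03). Among all genes the shares were 12.2% higher and 13% lower. Sestrin 3 (Sesn3), of a family whose members include leucine sensors, rose by 0.90 (adjusted p = 0.00453), whereas Sesn1 fell by 0.91 (adjusted p = 0.000500). Sesn3 was detected on 1 of 3 arrays at day 15.5, so the size of its rise rests on values near background and ranged from 0.47 to 1.32 over other ways of processing. The GATOR1 subunit Depdc5 gave 0.39 (adjusted p = 0.0496), a call lost in the absence of any one array, and folliculin (Flcn) fell by 0.56 (adjusted p = 0.0153), a call lost without replicate 2 of day 18.5 and without day 15.5 replicate 2 or 3. The adjusted p after leaving out 1 array reached 0.130 for Depdc5 and 0.0653 for Flcn.

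Partners and regulators of the carriers had none of 10 tested genes higher, 5 lower and 5 not called (median −0.33), against 12.2% higher, 13% lower and a median of 0.02 over all genes. The kinase Sgk3, which raises the surface abundance of several amino acid carriers, fell by 0.96 (adjusted p = 0.00226), and Nedd4l, a ubiquitin ligase that removes carriers from the membrane, fell by 0.63 (adjusted p = 0.00354). Amino acid carriers of other families had 1 of 8 tested genes higher and 1 lower (median −0.09), against the same shares of all genes. The other 6 were not called. The aromatic amino acid carrier Slc16a10 rose by 0.72 (adjusted p = 0.0144, and 0.0559 without replicate 2 of day 15.5), and the mitochondrial aspartate and glutamate carrier Slc25a12 fell by 0.59 (adjusted p = 0.00749).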

How the data were processed

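Total RNA of 6 uterus arrays was measured, 3 of day 18.5 and 3 of day 15.5, grouped by their titles. Per the file headers, the authors deposited a mean bead signal (intensity, neither background-corrected nor normalized) with a detection p-value per probe and array. They also deposited normalized intensity values, and for each line a ratio (day 18.5 as numerator) with its false discovery rate (q-value). The authors' background correction is not given in sources used here. Each authors' ratio was matched, within a gene symbol, to the probe whose geometric means of normalized intensity give that ratio (relative tolerance 1e-05). All 43887 of 43887 found exactly 1 probe, and 1394 lines held none. This also bore out the pairing of symbol and probe within a line.

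The deposited raw intensities then went through neqc of limma 3.58.1 under R 4.3.3, which infers background from detection p-values, adds an offset of 16, quantile-normalizes and returns log2 values. Probes with detection p under 0.05 on at least 3 of 6 arrays were fitted with lmFit and eBayes, two-sided, Benjamini-Hochberg adjusted over 20701 probes, threshold 0.05. A gene was described by its brightest tested probe. Member probes rested on 21 to 73 beads per array, and 3 arrays per day limit the precision. On simulated data 139 of 200 probes changed by a log2 of 1 were recovered among 20701, with 3 false calls. The simulated noise was normal and independent between probes. Far fewer probes were changed than the 5128 called in the data, so these counts are no error rate of the results. Carriers and lists were chosen with earlier results of these data known. All tested member genes are given, called ones in full, and from each pathway list up to 2 genes per direction by smallest adjusted p, except the 7 enzymes said to be picked later. Same-numbered arrays deviated from their day means with correlations of −0.165, 0.138 and −0.0708, against −0.167 to 0.229 for differently numbered ones. No pairing by number was evident, though 3 arrays per day cannot exclude one, and the main fit used none. Alternatives were no background correction, an offset of 50, median scaling, the authors' intensities, other detection filters, other probe rules, other variance models, array weights, a replicate block and leaving out each array.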

Additional observations from a re-analysis of the deposited data

How the results depend on the processing

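The count of member probes called higher at day 18.5 was 7 and ranged from 5 to 9 over 17 alternatives. The count called lower was 10 and ranged from 4 to 12. The low of 4 came with the strict filter (detection p under 0.01 on all 6 arrays). It left untested the probes called lower of Slc43a1, Slc6a7, Slc1a3, Slc38a5 and Slc1a5, which are dim on at least 1 array. The calls that remained were Slc6a12, Slc7a4 and Slc38a6, and Slc7a8 was newly called. Leaving out 1 array gave 5 to 7 higher and 9 to 11 lower. Over all probes, leaving out 1 array gave 1742 to 2221 higher and 2027 to 2495 lower. The replicate block gave 8 member probes higher and 10 lower, and the labels do not say whether equal numbers mark a pair. The block ended the calls of Slc6a19 and Slc38a6 and brought in others, Slc7a8 and Slc7a6os among them. Of 272 recomputed values for the 17 called probes, none changed sign and 21 missed the threshold, all at Slc38a6, Slc6a19 and the Slc15a2 probe. Of 367 values for 22 uncalled probes, 19 passed it, 8 of them at Slc38a2. The uncalled smooth muscle marker Acta2 (0.07) gave −0.40 (adjusted p = 0.0228) with the mean of its probes, and the cause was not tested. The largest shift of the median over all probes was 0.04, with median scaling. Dim members (Slc43a1, Slc38a5, Slc1a3, Slc6a7, Slc6a19, and Slc1a5 at day 18.5) lie close to background. Over the alternatives Slc43a1 ranged from −1.55 to −0.64, Slc1a3 from −1.65 to −0.62 and the brightest Slc1a5 probe from −1.40 to −0.71.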
